A study of Gallus gallus with 6 samples.

Results

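Relaxin (RLN1) and the receptor for gonadotropin-releasing hormone (GNRHR) were examined in magnum tissue of hens that were laying and hens that were not. They are 2 of the 19152 genes in the deposited count table, of which 16407 had at least 1 count. RLN1 was read at the identifier ENSGALG00000015028 and GNRHR at ENSGALG00000020923, because the study's table of differentially expressed genes pairs these names with these identifiers. Both genes therefore come from a table of genes picked for a difference between these same libraries, and their tests here are not independent evidence of it. The magnum is the oviduct segment that secretes the egg white. RNA was sequenced from 3 laying Hy-line white hens of 35 weeks, sampled 3 h post-ovulation with the egg in the magnum, and from 3 non-laying Hy-line white hens of 35 to 60 weeks. The non-laying hens were chosen from several flocks and had an atrophied oviduct at necropsy, so age, flock and gland regression cannot be told apart from the laying state. Each library was made from 1 hen.

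Relaxin is a small secreted hormone of the insulin superfamily, made as a prohormone that is cut into an A and a B chain joined by disulphide bonds. It acts through G protein-coupled receptors of the RXFP family. In mammals the relaxin of ovary and placenta loosens connective tissue and relaxes smooth muscle of the reproductive tract. The paper cites a report that relaxin-3 is the only member of the relaxin family kept in the chicken genome. In hens a relaxin-like peptide is known from the granulosa layer of post-ovulatory follicles. Gonadotropin-releasing hormone is a peptide of the hypothalamus. Its receptor is best known on the gonadotropes of the pituitary, where it acts through Gq proteins, phospholipase C and calcium to release luteinizing and follicle-stimulating hormone, which in turn drive the ovary. The estrogen and progesterone of the ovary maintain the gland cells of the magnum.

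In the deposited gene table, RLN1 lies on chromosome Z from 27625100 to 27627598 (Galgal 5.0) and is annotated as protein-coding with 847 bp of exon within a span of 2499 bp. The study calls this gene RLN1 in its gene tables and RLN3 in its qPCR assay. The RefSeq gene table of a later assembly (GRCg7b) holds 1 gene for both names, RLN3 with the synonym RLN1, also on chromosome Z. The transcript to which the study designed its relaxin primers belongs to that gene. The gene was found through the transcript that the study names for its primers, and the primer sequences were not aligned to it. The pair is shown because it is the only relaxin sequence among the sources used here. It is printed 5′ to 3′ in lower case without capitals, since no part of it was singled out.
relaxin forward primer: gcggccgattcttctcaag
relaxin reverse primer: gtcatctgccatagactcgt
In the RefSeq table the gene overlapped no other gene. Its neighbours were JAK2, a cytokine-receptor kinase, with the non-coding LOC107052271 on one side, and CD274 and PDCD1LG2, ligands of an immune checkpoint receptor, on the other.

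GNRHR lies on chromosome 10 from 20012995 to 20015650 (Galgal 5.0), with 1955 bp of exon within 2656 bp, and is also annotated as protein-coding. RefSeq lists no gene under the symbol GNRHR but places a pair of GnRH receptor loci on this chromosome, LOC427517 (synonyms GNRHR1/III and GNRHR2) and LOC395368 (synonyms CGNRH-R and CGNRHRL). In the deposited gene table the nearest gene with a symbol on chromosome 10 was PRC1, a protein of the mitotic spindle midzone. In RefSeq, 13 genes start between LOC427517 and PRC1, against 95 between LOC395368 and PRC1. The neighbours of LOC427517 in RefSeq were ANKRD34C and TMED3 on one side and MESP1 and MESP2 on the other, and no gene overlapped it. The sources used here pair no identifier with either receptor locus or with these neighbours. Which locus ENSGALG00000020923 stands for is therefore not settled, and the levels of the neighbours are not analysed here.

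The summed counts were 24948527 to 25763750 in laying hens and 18840068 to 24917234 in non-laying hens. A single gene, ENSGALG00000012869, took 49.4% to 53.6% of the counts in laying hens and 1.33% to 36.5% in non-laying hens. Libraries were therefore scaled with TMM, a trimmed mean of log ratios between libraries, with factors of 0.445 to 0.621 in laying hens and 1.19 to 2.94 in non-laying hens. CPM below means counts relative to these scaled library sizes, and RPKM means the deposited values, which are per kilobase of exon and relative to a library's total and are not scaled further. The counts of both genes were whole numbers in all 6 libraries. Counting intervals are exact 95% Poisson intervals. They cover only counting error and treat each count as a separate molecule, although no molecular identifiers mark which reads come from separate molecules.

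RLN1 was higher in every laying hen than in every non-laying hen. It had 66, 78 and 31 counts in laying hens 1, 2 and 3, against 18, 5 and 7 counts in non-laying hens 1, 2 and 3. In CPM these were 5.92, 4.87 and 2.07 in laying hens, against 0.461, 0.168 and 0.126 in non-laying hens. The groups did not overlap, and the lowest laying hen was 4.50 times above the highest non-laying hen in CPM. In RPKM the groups did not overlap either, but this ratio was only 1.57. The laying hens averaged 4.29 ± 1.99 CPM and the non-laying hens 0.252 ± 0.182 CPM (SD, n = 3 each). The log2 fold change was 4.07 ± 0.66 (standard error) by the quasi-likelihood test of edgeR (adjusted p = 0.0148, Benjamini-Hochberg over 12499 genes), which passed the study's thresholds of a fold change over 3 and an adjusted p under 0.05. Of the genes tested, 1.28% passed both thresholds as higher in laying hens, and 15.1% had every laying hen above every non-laying hen in CPM. By log2 fold change RLN1 was 24th among the 12499 genes, and by the p of edgeR it was 172nd. In these tissue samples, a change in the number of cells that hold a transcript and a change in its amount per cell cannot be told apart.

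RLN1 missed the threshold on the adjusted p without laying hen 1 or without laying hen 2. This loss was not particular to RLN1. Of all genes tested, 20 passed both thresholds without laying hen 1 and 16 without laying hen 2, against 623 with all hens. The log2 fold change of RLN1 was 4.07 with all hens. Without laying hen 1 the log2 fold change was 3.78 (edgeR adjusted p = 0.0783, unadjusted p = 0.00121), and without laying hen 2 it was 3.97 (edgeR adjusted p = 0.0709, unadjusted p = 0.000898).

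Laying hen 3 had the lowest RLN1 level of the laying hens. Its counting interval for RLN1, 1.41 to 2.94 CPM, lay below those of laying hen 1 (4.58 to 7.53 CPM) and laying hen 2 (3.85 to 6.08 CPM), whereas the intervals of hens 1 and 2 overlapped. The rate in laying hen 1 was 2.86 times that in laying hen 3 (exact 95% interval 1.84 to 4.53, counting error only). These intervals leave out the variation between hens and libraries, and a difference between single hens was not tested. Among non-laying hens, hen 1 had the highest value, with an interval of 0.273 to 0.728 CPM that overlapped those of hen 2 (0.0547 to 0.393 CPM) and hen 3 (0.0509 to 0.261 CPM). The order of the non-laying hens 2 and 3 turned with the scale, since their RPKM was 0.237 and 0.439. Laying hens 1 and 2 also changed places, at 3.11 and 3.57 RPKM.

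Nearly all GNRHR counts came from the laying hens. It had 16, 31 and 7 counts in laying hens 1, 2 and 3, against 0, 0 and 1 counts in non-laying hens 1, 2 and 3. In CPM these were 1.42, 1.94 and 0.467 in laying hens, against 0, 0 and 0.0177 in non-laying hens. The groups did not overlap. Laying hen 2 was highest and laying hen 3 lowest, at a ratio of 4.14 (exact 95% interval 1.79 to 11.2, counting error only), while the interval of laying hen 1 overlapped those of hens 2 and 3. A count of 0 allows up to 3 counts as a one-sided limit, or 0.0777 CPM in non-laying hen 1 and 0.102 CPM in non-laying hen 2. The receptor transcript was therefore not detectable at this depth in those hens. Their two-sided exact intervals end at 0.0956 and 0.126 CPM, and that of laying hen 3 begins at 0.188 CPM. This gap rests on the scaling. In counts, the interval of laying hen 3 begins at 2.81, below 3.69, where that of a count of 0 ends. Laying hen 3 had more summed counts than non-laying hens 1 and 2, so these intervals overlap without scaling.

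GNRHR had too few counts to pass edgeR's default filterByExpr and was tested in a fit of all 16407 genes with at least 1 count. Its log2 fold change there was 6.71 (edgeR adjusted p = 0.0049, Benjamini-Hochberg over 16407 genes), past both thresholds. Of the genes in this fit, 4.22% passed in either direction, 1.17% passed as higher in laying hens and 11.6% had every laying hen above every non-laying hen in CPM. By log2 fold change GNRHR was 7th among the 16407 genes, and by the p of edgeR it was 130th. The fitted value depends on the small prior count that edgeR adds, because only 1 count was seen among the non-laying hens. Summed over hens, 54 counts in laying hens against 1 count in non-laying hens gave a ratio of 159 per scaled library size, with an exact 95% interval of 27.3 to 6391 that covers counting error only. The same ratio for RLN1, from 175 counts in laying hens against 30 in non-laying hens, was 17.2 (exact 95% interval 11.6 to 26.2). With any 1 hen left out, the edgeR adjusted p of GNRHR stayed between 0.00275 and 0.0302 in fits of all genes with a count. RLN1 passed filterByExpr, for which the counts of the 3 laying hens alone were enough.

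**Figure D1:**
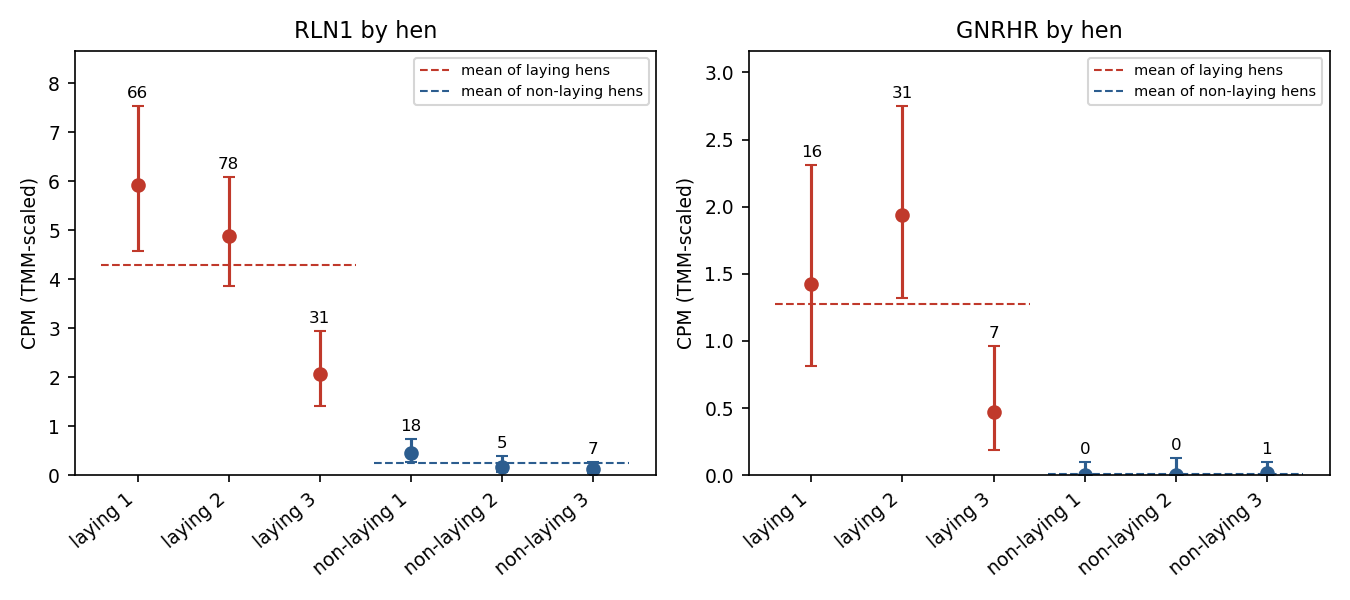
RLN1 (left) and GNRHR (right) in each hen, as CPM on TMM-scaled library sizes. Points are hens, bars are exact 95% Poisson intervals, dashed lines are group means and the digits are counts. For both genes the 3 laying hens lie above the 3 non-laying hens, and laying hen 3 is the lowest laying hen.

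The scaling of the libraries set the size of both differences but not their direction. On summed counts with no scaling, the median log2 fold change of the 12499 genes was -1.80, against 0.00 with TMM. RLN1 then had a log2 fold change of 2.33 (edgeR adjusted p = 0.0153), which was 4.13 above that median, against 4.07 above the median with TMM. GNRHR had 5.10 (edgeR adjusted p = 0.00241) in the fit of all genes, 6.99 above the median of that fit, against 6.80 with TMM. On this unscaled footing the rate of RLN1 was 5.12 times higher in laying hens (exact 95% interval 3.46 to 7.81), and that of GNRHR 47.4 times higher (exact 95% interval 8.15 to 1905, both counting error only).

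The deposited RPKM values allow the levels of different genes to be compared, since they are per kilobase of exon. RLN1 had 3.11, 3.57 and 1.47 RPKM in laying hens 1, 2 and 3, against 0.935, 0.237 and 0.439 RPKM in non-laying hens 1, 2 and 3. GNRHR had 0.326, 0.616 and 0.144 RPKM in the laying hens, against 0, 0 and 0.0272 RPKM in the non-laying hens. Per length, RLN1 thus exceeded GNRHR in each laying hen, by 9.52, 5.81 and 10.2 times in hens 1, 2 and 3. The hormone and receptor transcripts were both modest in level. Of the 16407 genes with a count, 66.8%, 61.6% and 47.1% had a lower RPKM than RLN1 in laying hens 1, 2 and 3, against 28.5%, 21.8% and 16.5% in non-laying hens 1, 2 and 3. For GNRHR these shares were 34.4%, 36.0% and 24.6% in laying hens, against 0%, 0% and 4.74% in non-laying hens. This standing within a library does not depend on how libraries are scaled to each other, although it moves when other genes change. RLN1 was between 0.436 and 1.28 times the median RPKM of the 12499 tested genes in laying hens and between 0.0257 and 0.0964 times in non-laying hens.

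**Figure D2:**
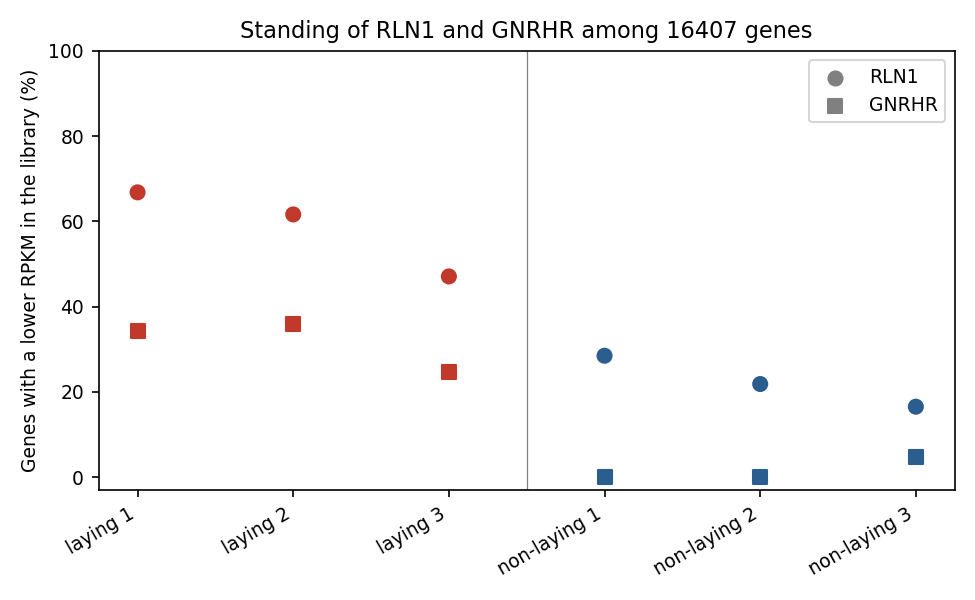
Share of 16407 genes with a lower RPKM than RLN1 (circles) or GNRHR (squares) within each library, with laying hens in red and non-laying hens in blue. RLN1 stands at 47.1% to 66.8% in laying hens and at 16.5% to 28.5% in non-laying hens, and GNRHR lies below RLN1 in every hen.

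Genes with a pattern like that of each hormone gene were ranked by the Euclidean distance between log2 CPM profiles over the 6 libraries, each centred on its own mean. The 371 candidates for RLN1 were the genes with a symbol and a mean of at least 1 CPM. The symbols come from the study's list of differentially expressed genes, so a difference between the groups, in either direction, was built in. The 5 closest were SLC25A4, LOC770617, SLC26A4, LEFTY2 and SLC1A4, at distances of 0.877 to 1.42. The median over the candidates, those lower in laying hens included, was 7.54. They were also the 5 closest among all 11451 genes of that level, with or without a symbol. Pearson's r over the 6 libraries was 0.968 to 0.986 for these 5, as a description of libraries that share the group difference.

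SLC25A4, the mitochondrial exchanger of ADP and ATP, was closest to RLN1. It had 385, 257 and 168 CPM in laying hens 1, 2 and 3, against 32.2, 27.4 and 13.6 CPM in non-laying hens 1, 2 and 3. LEFTY2, a secreted inhibitor of Nodal signalling, had 2.69, 2.25 and 1.14 CPM in laying hens, against 0.102, 0 and 0.0903 CPM in non-laying hens. SLC26A4, an anion exchanger also known as pendrin, and SLC1A4, a transporter of neutral amino acids, had log2 fold changes of 3.79 and 3.05 (edgeR adjusted p = 0.00676 and 0.013). LOC770617, which the study describes as similar to a transmembrane protein, had one of 3.81 (edgeR adjusted p = 0.0199). All 5 shared with RLN1 a lowest laying value in hen 3, a likeness that their choice by distance to its profile favours.

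For GNRHR, the 5 closest of 373 named candidates were MMP9, ACE, LEFTY2, EAF2 and SLC51B, at distances of 0.88 to 1.33. MMP9, a gelatinase of the extracellular matrix, was closest. It had 3.29, 7.43 and 1.27 CPM in laying hens 1, 2 and 3, against 0.0777, 0.102 and 0.284 CPM in non-laying hens. MMP9, EAF2 and SLC51B shared with GNRHR the peak in laying hen 2, and all 5 shared its lowest laying value in hen 3. The choice by distance to the profile of GNRHR favours such likeness. ACE, which converts angiotensin I to angiotensin II, had 135, 125 and 90.9 CPM in laying hens, against 5.73, 5.23 and 7.73 CPM in non-laying hens. EAF2, a partner of the transcription elongation factor ELL, and SLC51B, a subunit of an organic solute transporter, had log2 fold changes of 3.50 and 5.44 (edgeR adjusted p = 0.00669 and 0.00596, fit of all genes). LEFTY2 was among the 5 closest genes of both RLN1 and GNRHR. RLN1 itself was at a distance of 1.41 from GNRHR, with 6 of the named candidates closer.

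**Figure D3:**
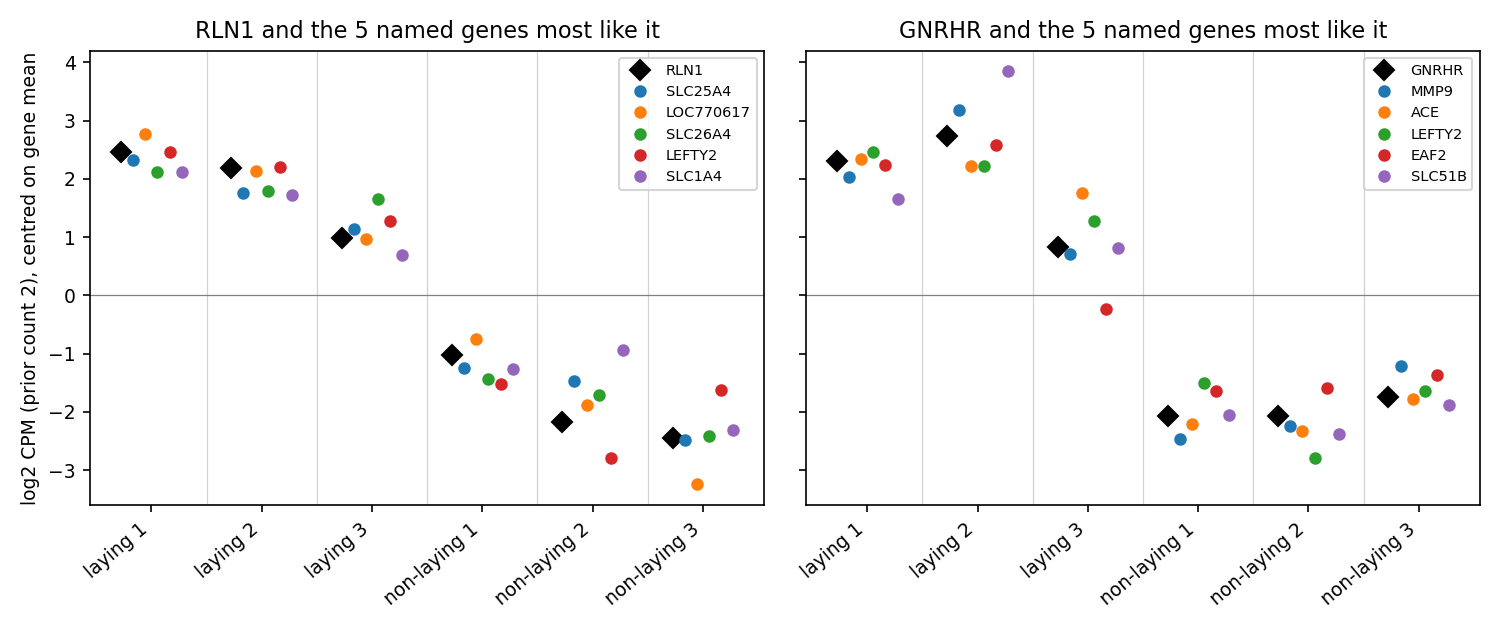
Log2 CPM (prior count 2) of RLN1 (left, black diamonds) and GNRHR (right, black diamonds) and of the 5 named genes closest to each, by hen, each gene centred on its own mean over the 6 libraries. All genes shown lie higher in laying hens, where hen 3 is the lowest for each gene of both panels.

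The wider hormone pathways could be read only in part. Of 109 genes listed for relaxin and insulin family ligands, relaxin receptors, relaxin signalling, prohormone processing, GnRH ligands and receptors, GnRH receptor signalling, pituitary hormones and their receptors, steroid receptors, steroid hormone synthesis and oviduct contraction, the sources used here pair 6 with an identifier, RLN1 and GNRHR among them. No member of the relaxin receptor, pituitary, steroid receptor, steroid synthesis or contraction lists was paired, so the receptors for relaxin and the ligands for GNRHR are not analysed here. The other 4 are MMP9, EDNRA, SCG5 and CACNA1D, and all come from the study's list of differentially expressed genes.

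Of the 5 listed genes that were tested with filterByExpr, 3 passed both thresholds as higher and 2 as lower in laying hens, where 4.98% of all genes passed in either direction and 3.7% as lower. All 5 have an identifier only through the study's list of differentially expressed genes, so a high share was built in. SCG5, a chaperone of the prohormone convertase PCSK2, had 18, 26 and 12 counts in laying hens 1, 2 and 3, against 6, 8 and 6 counts in non-laying hens. Its log2 fold change was 2.94 (standard error 0.57, edgeR adjusted p = 0.0222). MMP9, a target of relaxin in mammalian connective tissue, rose by 4.58 on the log2 scale (standard error 0.81, edgeR adjusted p = 0.0182). EDNRA, a receptor for the vasoconstrictor endothelin, had 11.9, 10.3 and 12.1 CPM in laying hens, against 53.6, 33.3 and 79.0 CPM in non-laying hens. Its log2 fold change was -2.27 (standard error 0.33, edgeR adjusted p = 0.0117). CACNA1D, a pore subunit of L-type calcium channels, had a log2 fold change of -2.62 (standard error 0.62, edgeR adjusted p = 0.0415). Without laying hen 1 or without laying hen 2, 0 of these genes passed in edgeR, with 5 of them at an unadjusted p under 0.05 in both cases. Of all genes tested, 20 and 16 passed in these fits. Without non-laying hen 1, 2 of these 5 listed genes passed, again with 5 at an unadjusted p under 0.05, and 285 of all genes tested passed.

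Markers of the cell types that a magnum sample can hold were also read where an identifier was known. Avidin (AVD), an egg-white protein, was the only 1 of 10 listed egg-white genes with an identifier. It had 2001, 1611 and 839 CPM in laying hens 1, 2 and 3, against 2.38, 2.26 and 3.04 CPM in non-laying hens. As with RLN1 and GNRHR, laying hen 3 was the lowest laying hen for AVD. The summed level of 7 of 10 listed genes of ciliated cells was 24.1 to 42.7 CPM in laying hens and 111 to 236 CPM in non-laying hens. That of 4 of 8 stroma genes was 264 to 295 CPM in laying hens and 1132 to 2103 CPM in non-laying hens, and that of 2 of 8 leukocyte genes was 3.95 to 5.95 CPM in laying hens and 13.1 to 37.8 CPM in non-laying hens. The mitosis list marks dividing cells of any type and includes MCM2 and RRM2, which serve DNA replication. Its 8 genes summed to 18.3 to 22.8 CPM in laying hens and 83.4 to 366 CPM in non-laying hens. Of these markers, 6 of 7 ciliated-cell, 4 of 4 stroma, 2 of 2 leukocyte and 7 of 8 mitosis-list genes passed both thresholds as lower in laying hens, against 3.7% of all genes tested. All were chosen by the study as differentially expressed, so a high share was built in, and no listed marker was at 0 in either group. No marker of smooth muscle, endothelium, erythroid cells, ovarian follicle cells or pituitary gonadotropes had an identifier. Whether these marker levels reflect a change in cell makeup, and what part it has in the differences of RLN1 and GNRHR, was not tested.

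**Figure D4:**
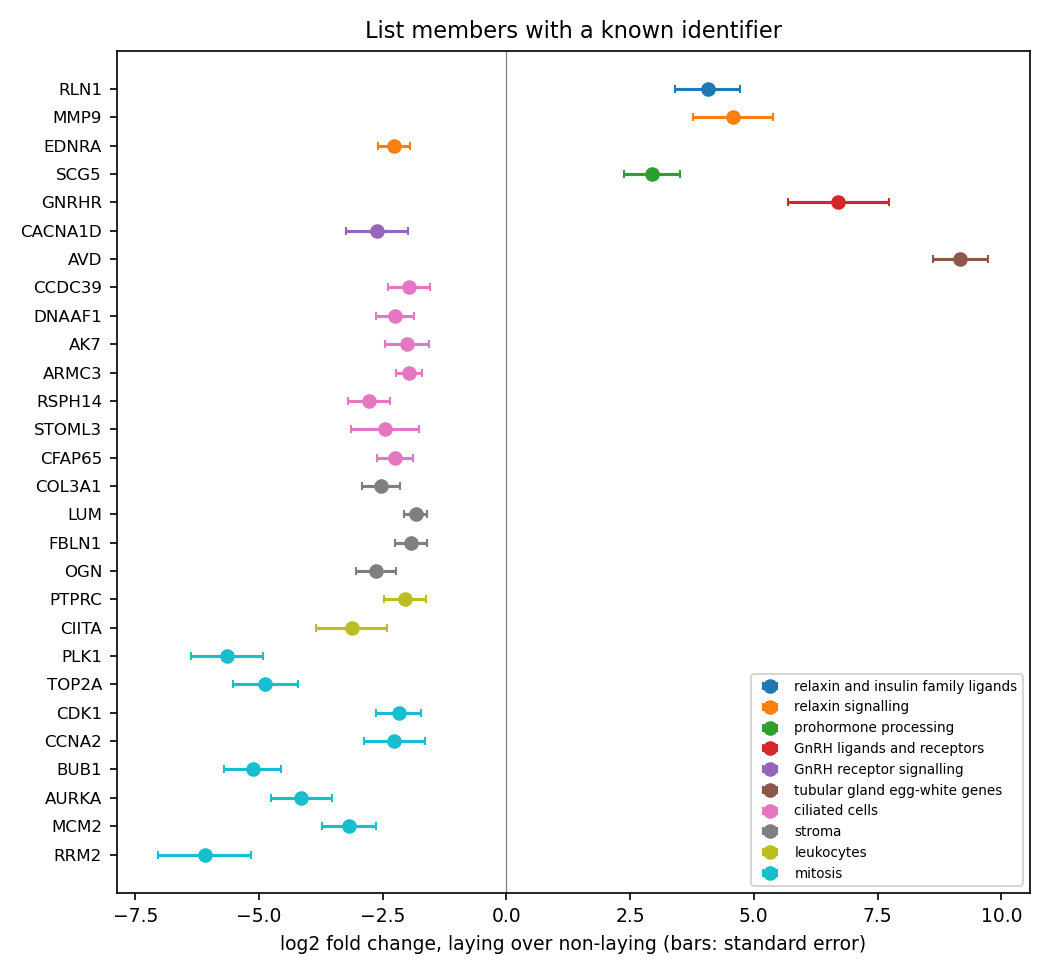
Log2 fold change, laying over non-laying, of the listed genes with a known identifier, coloured by list, with standard errors as bars. RLN1, MMP9, SCG5, GNRHR and AVD lie above 0 and the others below. GNRHR is from the fit of all genes, and its value depends on the prior count.

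**Figure D5:**
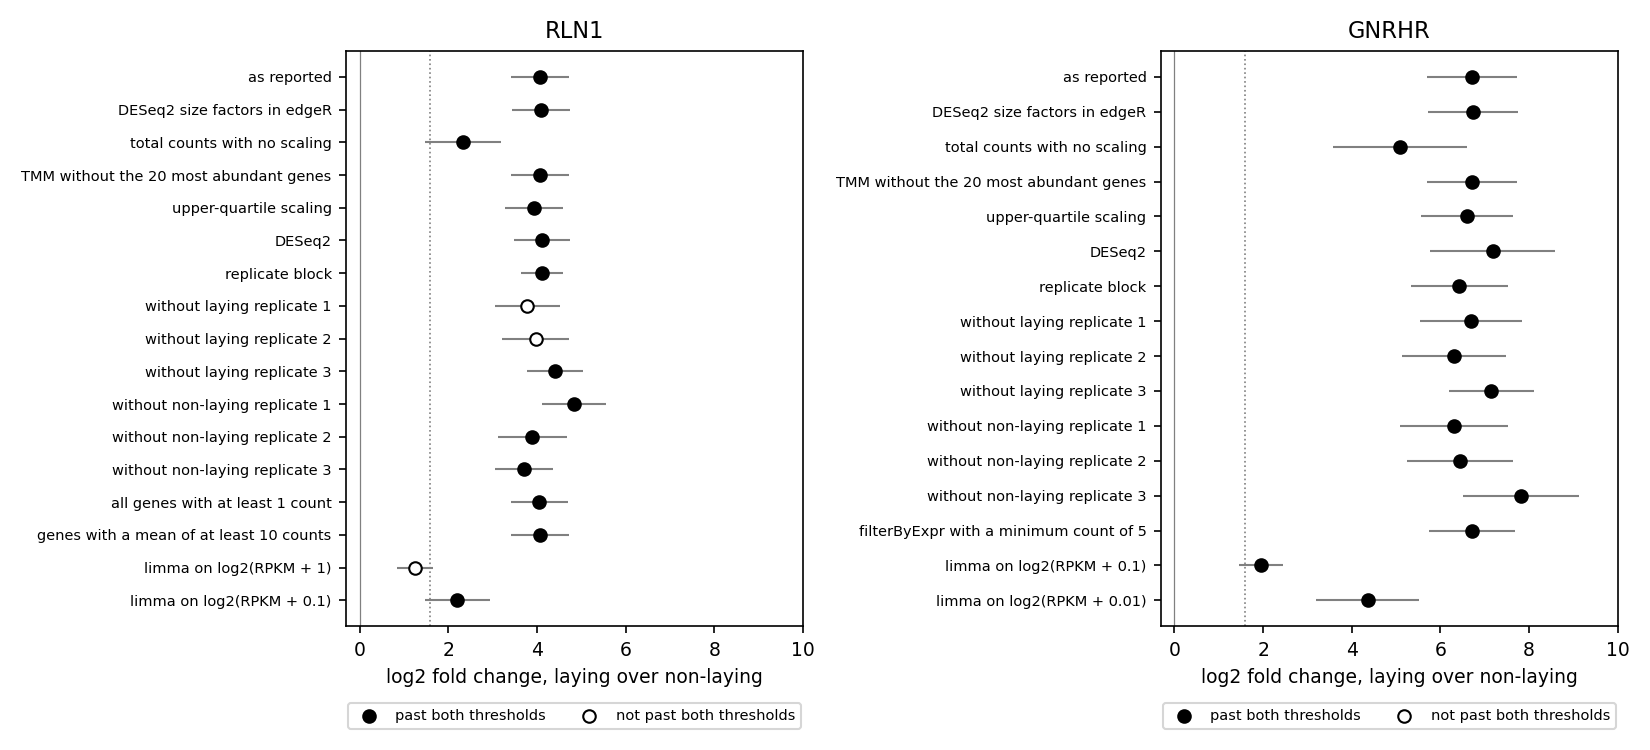
Log2 fold change with its standard error for RLN1 (left) and GNRHR (right) as reported and under each alternative. The dotted line is the 3-fold threshold, and open points did not pass both thresholds. RLN1 lies between 1.25 and 4.84 and GNRHR between 1.96 and 7.82, with no value below 0.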

How the data were processed

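The members and gene lists were chosen with earlier results of these data known. The authors trimmed single-end reads of stranded mRNA libraries in Prinseq. Alignment to Galgal 5.0 and counting by Ensembl gene were done in Array Studio. Strand and counting settings are not given in the sources used here. They deposited estimated counts (expected counts) without normalization, and the 5.98% to 8.84% of a library's values that were not whole were rounded. The authors also deposited RPKM values, per kilobase of exon and relative to the library's total. Their deposited table of 540 genes holds fold changes, p-values and group means of the authors' own comparison, which were not used. Only its other columns, names, coordinates and exon lengths, were used. A symbol was known for 409 identifiers.

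The comparison of laying over non-laying hens used edgeR 4.0.16 in R 4.3.3 (glmQLFit and glmQLFTest, two-sided, TMM, no covariates), with filterByExpr (12499 genes) for RLN1 and all 16407 genes with at least 1 count for GNRHR. The standard error is the log2 fold change divided by the root of the F statistic. Each library came from 1 hen and each hen was 1 replicate. The analysis was tested on simulated data. Named genes were the pair, RefSeq neighbours, listed genes with an identifier that passed both thresholds, and the 5 most alike genes. The neighbours were those of RLN3 and of LOC427517. Marker genes were added for context. Alternatives were other scalings, DESeq2 1.42.0, other filters, limma 3.58.1 on log2 RPKM, the replicate number as a block, each hen left out, and upper-quartile scaling, which was chosen after seeing the data. Intervals used scipy 1.17.1 and figures matplotlib 3.10.9. Ratios to TBP, the reference gene of the study's qPCR, were planned but not computed, because the sources used here pair it with no identifier.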

Additional observations from a re-analysis of the deposited data

How the results depend on the processing

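Both genes were higher in laying hens under every alternative run. GNRHR passed both thresholds under all 15 alternatives, and RLN1 under 13 of 16, with values of 1.25 to 4.84 and adjusted p of 1.29e-08 to 0.0783. These totals are not alike, because RLN1 was mostly tested with filterByExpr and GNRHR mostly among all genes with a count. In the fit of all genes with all hens, the edgeR adjusted p of RLN1 was 0.00596, against 0.0148 with filterByExpr. RLN1 was not read in such fits with 1 hen left out. With limma on log2(RPKM + 1) the log2 fold change of RLN1 was 1.25, under the threshold on the fold. RPKM lacks the TMM scaling, and RLN1 was at 2.33 in edgeR on total counts with no scaling and at 2.21 with limma on log2(RPKM + 0.1). Adding 1 to values of this size compresses them further. With 1 hen left out, RLN1 ranged from 3.71 to 4.84 in fits with filterByExpr, and GNRHR from 6.30 to 7.82 in fits of all genes with a count. The total of 623 genes called, 160 of them higher in laying hens, ranged from 16 to 639 with 1 hen left out, the lowest without laying hen 2 (16) and laying hen 1 (20), at 285 without non-laying hen 1. It was 7907 on total counts with no scaling, 47 of them higher, 966 with DESeq2, 3845 with limma on log2(RPKM + 1), 7040 with limma on log2(RPKM + 0.1) and 939 with no threshold on the fold change. Of the listed hormone genes, 5 of 5 tested were called as reported, a share built in by their source, the study's list of differentially expressed genes. The number was 2 of 5 with limma on log2(RPKM + 1) and 0 to 6 with 1 hen left out. GNRHR was a sixth listed gene in 4 of the 6 fits with 1 hen left out, and 0 to 5 of the other 5 genes were called. Deviations from the group mean had correlations of 0.179, -0.0653 and 0.026 between same-numbered hens 1, 2 and 3. Between differently numbered hens these ranged from -0.156 to 0.125. Hens share only a number, and a fit with the replicate block gave RLN1 4.12, GNRHR 6.43, 397 genes called and 3 listed genes called. The planned ratios to TBP were not run, and GNRHR was left out of fits with a mean of at least 10 counts or with the default filterByExpr on all 6 hens. With the minimum count of filterByExpr lowered to 5, GNRHR was tested on all 6 hens and had a log2 fold change of 6.71 (edgeR adjusted p = 0.0119). GNRHR is limited by depth, at 1 count in all non-laying hens, and both genes by 3 hens per group.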

Other observations

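RLN1 was at 0.461, 0.168 and 0.126 CPM in non-laying hens 1, 2 and 3. The order of hens 2 and 3 rested on 5 and 7 counts with overlapping intervals, and it turned in RPKM. The stroma genes summed to 2103, 1483 and 1132 CPM, in the same order as RLN1 in CPM. Most of that sum was COL3A1, at 1966, 1371 and 958 CPM. The other stroma genes had other orders: LUM was at 81.1, 56.9 and 75.0 CPM, FBLN1 at 28.9, 29.8 and 50.5 CPM, and OGN at 27.6, 24.5 and 49.3 CPM. The order also differed from that of RLN1 in CPM for AVD, at 2.38, 2.26 and 3.04 CPM. It differed too for the ciliated-cell genes, whose sums were 111, 127 and 236 CPM. The most abundant gene of the laying magnum, ENSGALG00000012869, took 19.8%, 36.5% and 1.33% of the counts of non-laying hens 1, 2 and 3. With 3 hens, no relation between these values can be tested. SCG5 was at 0.154, 0.27 and 0.108 CPM in non-laying hens 1, 2 and 3, against 1.61, 1.62 and 0.803 CPM in laying hens 1, 2 and 3.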
